A study of Homo sapiens with 6 samples.

Results

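The subject here is the part of the si-MALAT1 response that the non-small cell lung cancer (NSCLC) cell lines H1299 and A549 share and that H460 does not. MALAT1 is a long noncoding RNA that stays in the nucleus, where it lies at nuclear speckles and is known for effects on splicing and transcription. RNA-seq was performed on 6 libraries of total RNA, a control library and a si-MALAT1 library for each of H460, a large cell carcinoma line, H1299, an NSCLC line from a lymph node metastasis, and A549, a lung adenocarcinoma line. Each line is a single established culture, the knockdown was made by transient siRNA transfection, and the time from transfection to RNA extraction is not stated for the sequenced cells. The sample labels call the controls untreated, whereas the methods also describe cells given a control siRNA, so an effect of transfection itself and an effect of MALAT1 loss cannot be told apart here.

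Within each line, the log2 fold change was the log2 of the scaled read count plus 1 in the si-MALAT1 library minus the same in the control library. The double difference was the mean log2 fold change of H1299 and A549 minus that of H460, so that a negative value means that the gene was lower after si-MALAT1 in H1299 and A549 relative to H460. Pairs of read counts below give the control first, and runs of 3 log2 fold changes are in the order H1299, A549, and H460. There was 1 library per line and condition, and the interval given for a fold change within a line is a 95% interval (exact, Clopper-Pearson) for how a gene's reads divide between both libraries, which covers counting error only. Of 46427 genes in the deposited table, 17834 had a read in all 6 libraries. Of these, 1327 were at least 1.5-fold higher or at least 1.5-fold lower in both H1299 and A549. They fell into 440 genes that H460 followed past 1.5-fold in the same direction, 128 that were opposed (past 1.5-fold the other way in H460), 384 that were not followed (within 1.5-fold in H460, and at least 1.5-fold away from both other lines), and 375 in between. The 512 opposed or not followed genes are the main members described here, 2.87% of the genes measured.

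The read counts of the 6 libraries summed to between 42506818 and 68515992. MALAT1 was lower in every si-MALAT1 library, with read counts of 407551 and 47935 in H1299, 93747 and 14447 in A549, and 231045 and 43858 in H460. Its log2 fold change was -2.96 in H1299, -2.84 in A549, and -2.32 in H460. The change in H460 was thus the smallest of the lines, and its part in the differences below was not tested. CDKN2A, a cell cycle inhibitor gene that H460 and A549 are known to have lost, had 0 reads in the 4 libraries of those lines and 2938 and 2679 in H1299. All 6 epithelial carcinoma markers (KRT7, KRT8, KRT18, KRT19, EPCAM, and CDH1) had reads in all 6 libraries. KRT8 and KRT18, keratins of epithelial cells, had between 11408 and 144327 reads in every library. The levels of the other epithelial markers are not given here. Of 6 leukocyte markers, CD68 and CD14 had reads in all 6 libraries, and the list summed to between 1088 and 4083 reads a library. Of 6 fibroblast markers, COL1A1 and PDGFRB did, with sums of 102 to 6599. Of 6 endothelial markers 0 did, with sums of 0 to 396. PTPRC, CD3E, and CDH5, which define leukocytes, T cells, and endothelium, had 0 reads in all libraries.

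Type I and type III interferons act through their receptors, the kinases JAK1 and TYK2, and a complex that includes STAT2 and IRF9. This complex binds the interferon-stimulated response element in the promoters of a large set of antiviral effector genes. Many cancer lines transcribe part of this set without added interferon. Of the 19 gene lists set out below, the interferon-stimulated effectors had the highest share of opposed or not followed members (27.7%), and they are described first.

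The median of the interferon-stimulated effectors was below 0 after si-MALAT1 in H1299 and A549 and above 0 in H460. Over the 47 of 55 listed effectors that were measured, the median log2 fold change was -0.21 in H1299, -0.82 in A549, and 0.27 in H460. The median double difference was -0.55, and 42 of the 47 were below 0, beside a median of -0.01 and 51.0% below 0 over all 17834 genes. Taken singly, the median difference from H460 was -0.37 for H1299 and -0.92 for A549. In H460, 35 of the 47 had a log2 fold change above 0, beside 51.9% of all genes, against 18 in H1299 and 2 in A549. Of the 47, 13 were opposed or not followed and lower in H1299 and A549, beside 1.33% of all genes measured. H460 opposed 6 of these and did not follow 7. Of the rest, 1 was followed by H460, 4 lay in between, and 29 did not pass 1.5-fold in both H1299 and A549.

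The promoters of these genes are shown because most carry letters of the interferon-stimulated response element. RefSeq promoters on GRCh38.p14, from 250 bases before to 50 bases after the start of transcription, were found for 10 of the 13 genes. OAS2, OASL, and PARP10 were not matched. The motif searched was GAAA, any pair of bases, and GAAA again, which reads TTTC, any pair, and TTTC on the other strand. It was in 10 of these 10 promoters, in 17 of 27 (63.0%) promoters of the other measured effectors, and in 996 of all 27305 promoters (3.65%). Among measured genes the motif was in 359 of 11960 promoters (3.0%). A match is a description of the letters and not of binding. The windows below are 30 bases in the direction of the gene, with the match in capitals. ISG15, IFIT1, and IFI27 have a further match that overlaps or adjoins the one shown.
ISG15 (chr1:1013380-1013409, plus strand): tcgggaaaggGAAACCGAAActgaagccaa
IFIT1 (chr10:89392510-89392539, plus strand): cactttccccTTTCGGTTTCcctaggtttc
IFI27 (chr14:94110618-94110647, plus strand): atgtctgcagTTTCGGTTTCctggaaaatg
MX1 (chr21:41420559-41420588, plus strand): gagcagaaatGAAACCGAAActgaattgtc
IFI6 (chr1:27672329-27672358, minus strand): ggagagagggGAAAATGAAActctgcagag
IFI44L (chr1:78620365-78620394, plus strand): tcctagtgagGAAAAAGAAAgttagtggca
In ISG15, IFIT1, and IFI27 the match lies before the start, and in MX1 it lies just after the start. IFI6 and IFI44L carry repeats of the motif.

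**Figure D1:**
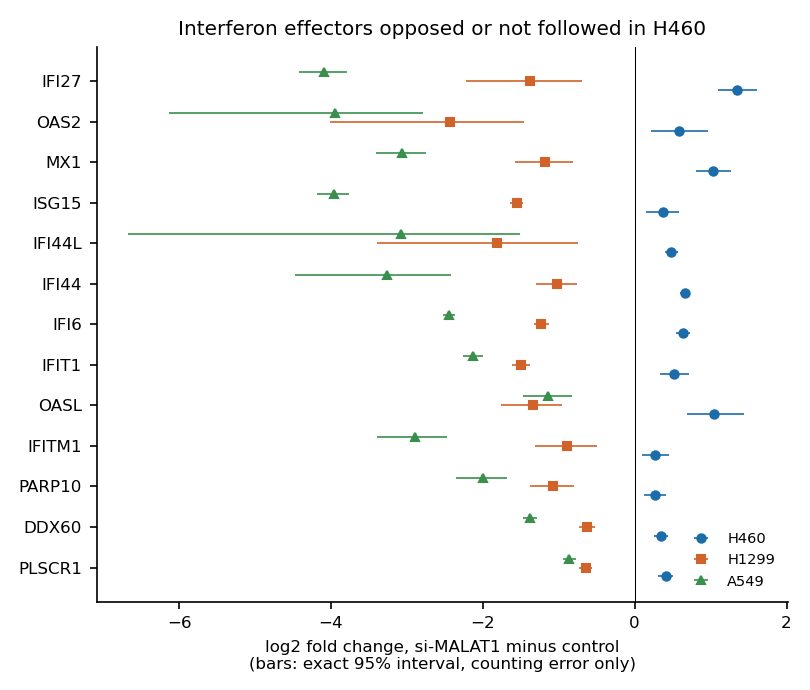
Log2 fold change (horizontal axis, si-MALAT1 minus control) of the 13 interferon effectors that were opposed or not followed, with H460 as circles, H1299 as squares, and A549 as triangles, and bars for the exact 95% counting interval. The selection places all 13 genes to the left of 0 in H1299 and A549, and the opposed genes to the right of 0 in H460. The genes not followed also lie to the right of 0 in H460, and IFI27 is at 1.34 in H460 and at -4.09 in A549.

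Among the effectors, IFI27, a small mitochondrial and nuclear membrane protein induced by interferon alpha, had the most negative double difference. IFI27 (Gene ID 3429, chromosome 14, 94110736 to 94116690) had read counts of 62 in the control and 21 in the si-MALAT1 library of H1299, 1382 and 89 in A549, and 181 and 436 in H460. Its log2 fold change was -1.38 in H1299 (95% interval -2.22 to -0.70), -4.09 in A549 (-4.43 to -3.79), and 1.34 in H460 (1.10 to 1.61), and the double difference was -4.08. The intervals of H1299 and A549 did not overlap that of H460, which follows largely from choosing IFI27 by its separation from H460. The H1299 and A549 intervals did not overlap each other either.

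MX1 is a dynamin-like GTPase that blocks influenza viruses. Its counts were 205 and 82 in H1299, 654 and 86 in A549, and 242 and 470 in H460, with log2 fold changes of -1.18, -3.06, and 1.04. OAS2 makes the 2-5A messenger that activates RNase L, and OASL is a related protein that enhances RIG-I signalling. OAS2 had 47 and 7 reads in H1299, 67 and 4 in A549, and 104 and 148 in H460. OASL had 204 and 73 reads in H1299, 245 and 122 in A549, and 92 and 181 in H460. The double difference was -3.16 for MX1, -3.78 for OAS2, and -2.29 for OASL. The H460 value of OAS2 (0.59) lies just past the 1.5-fold threshold of 0.585, so its class as opposed is a matter of the threshold.

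IFI6, an antiviral protein of the endoplasmic reticulum and mitochondria, was read far more deeply. Its counts were 3104 and 1210 in H1299, 7862 and 1602 in A549, and 1645 and 2416 in H460. The log2 fold change was -1.23 (-1.33 to -1.13) in H1299, -2.44 (-2.52 to -2.36) in A549, and 0.64 (0.55 to 0.73) in H460. IFI44 had 369 and 165 reads in H1299, 93 and 10 in A549, and 3118 and 4671 in H460, a double difference of -2.81.

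H460 did not follow IFIT1, ISG15, or IFI44L. IFIT1, which binds viral RNA that lacks the host cap, had 2549 and 824 reads in H1299, 2332 and 590 in A549, and 401 and 545 in H460. Its log2 fold change was -1.497 (-1.61 to -1.38) in H1299, -2.13 (-2.26 to -2.00) in A549, and 0.52 (0.34 to 0.71) in H460. IFIT1 fell across H1299 and A549 in edgeR's quasi-likelihood test, with an adjusted p of 0.0385, as 1 of 42 genes lower there (0.181% of 23198 tested). It was not called with RLE size factors, with no filter, or without cell line as the block. ISG15, a ubiquitin-like modifier, had 4788 and 1486 reads in H1299, 2772 and 196 in A549, and 321 and 392 in H460, with log2 fold changes of -1.56, -3.96, and 0.37.

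The level in the control libraries did not order the lines in one way. ISG15 and IFIT1 had the lowest control counts in H460, while IFI44L had 1931 and 2544 reads in H460 against 30 and 7 in H1299 and 21 and 2 in A549. Other effectors went with only one of the pair. BST2, a membrane tether of budding viruses, had log2 fold changes of 1.57 in H460 and -3.93 in A549 but 0.14 in H1299. IFIT3 had -0.57 in H1299, -1.31 in A549, and 0.83 in H460, and so missed 1.5-fold in H1299. BST2 and IFIT3 were chosen after their values were seen.

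The transcription factors of the pathway were lower in H1299 and A549 as well. All 5 had a log2 fold change below 0 in both lines and a double difference below 0, with a median double difference of -0.62. IRF7, the factor that amplifies interferon alpha transcription, had 826 and 412 reads in H1299, 976 and 272 in A549, and 295 and 382 in H460. Its log2 fold change was -0.87 in H1299, -1.98 in A549, and 0.45 in H460, and it was the 1 member of the list that was not followed. STAT2 was at -0.43, -0.48, and -0.18. IRF9, the DNA-binding partner of STAT2, was at -0.11 in H1299, -0.59 in A549, and 0.47 in H460, and IRF1 was at -0.53, -0.21, and -0.08.

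The ligands, receptors, and sensors upstream had medians near 0. The genes IFNB1, IFNL1, IFNL2, and IFNL3 had 0 reads in all 6 libraries, which allows up to 3 counts in each. Another ligand gene, IFNE, was read in all 6 libraries and had a double difference of 0.70. Over the 20 of 25 genes of this list that were measured, the median log2 fold change was 0.10 in H1299, 0.05 in A549, and 0.04 in H460. The median double difference was 0.08, and 9 of 20 were below 0. The double difference was 0.20 for the receptor chain IFNAR1, -0.04 for IFNAR2, and 0.33 for JAK1. Some members lay further from 0, with 0.70 for IFNLR1, 0.55 for MAVS, and -0.55 for CGAS. Among the sensors of viral RNA, IFIH1 and DHX58 were not followed. IFIH1, the sensor MDA5, had 2694 and 1505 reads in H1299, 435 and 158 in A549, and 637 and 614 in H460, with log2 fold changes of -0.71, -1.60, and 0.03. DHX58 was at -1.09, -0.75, and -0.05. DDX58, which encodes RIG-I, was lower in all lines, at -0.70, -1.07, and -0.54. The sensor TLR3 was higher in all lines, at 0.91, 1.16, and 0.85. MHC class I antigen presentation genes, many of them induced by interferon gamma, had a median double difference of -0.19, and 0 of the 20 measured were opposed or not followed. This median was 0.0070 on log2(TPM + 1), 0.0074 without A549, and -0.02 after centring on transcript length.

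Genes of DNA replication also differed between the pair and H460, and the median difference from H460 was -1.02 for H1299 and -0.49 for A549. E2F transcription factors control this set as cells pass from G1 to S phase, and MCM proteins form the helicase that opens the DNA. Over 45 measured genes the median log2 fold change was -0.76 in H1299, -0.20 in A549, and 0.23 in H460. All 45 double differences were below 0, beside 51.0% of all genes, with a median of -0.77. H460 was above 0 for 39 of the 45 genes, beside 51.9% of all genes, H1299 for 0, and A549 for 9. H460 did not follow 6 genes, all lower in the pair, beside 1.33% of all genes opposed or not followed in that direction. It opposed 0, and 36 did not pass 1.5-fold in both H1299 and A549.

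E2F1 (Gene ID 1869, chromosome 20, 33675477 to 33686385) had 2035 and 811 reads in H1299, 1806 and 1020 in A549, and 1550 and 1696 in H460. Its log2 fold change was -1.20 (-1.32 to -1.08) in H1299, -0.97 (-1.08 to -0.86) in A549, and 0.21 (0.11 to 0.31) in H460. The helicase subunit MCM6 had 7621 and 4113 reads in H1299, 4690 and 3322 in A549, and 4486 and 4596 in H460, with log2 fold changes of -0.76, -0.64, and 0.12. MCM3 and CDT1, the licensing factor that loads the helicase, were also not followed, with double differences of -1.09 and -0.92. PCNA, the sliding clamp, was higher in A549 (0.16) as in H460 (0.73) and lower in H1299 (-0.62). MCM3, CDT1, and PCNA were chosen after their values were seen.

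Words of the E2F site are shown for 3 of these promoters. The words TTTCCCGC, TTTCGCGC, TTTGCCGC, and TTTGGCGC, on either strand, were in 23 of the 38 replication promoters found in RefSeq (60.5%) and in 908 of all 27305 promoters (3.33%). Among measured genes the words were in 645 of 11960 promoters (5.39%). They were in 0 of the 10 promoters of the interferon effectors above, too few to set against 5.39%. Promoters of the other measured effectors had them in 3 of 27 (11.1%). In the windows the match is in capitals, and in MCM6 and E2F1 a second match lies within 30 bases of it.
E2F1 (chr20:33686387-33686416, minus strand): ggcaaaaaggaTTTGGCGCgtaaaagtggc
MCM6 (chr2:135876515-135876544, minus strand): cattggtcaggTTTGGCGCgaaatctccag
CDT1 (chr16:88803743-88803772, plus strand): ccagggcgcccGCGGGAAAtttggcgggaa

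Replication-dependent histones, whose mRNAs are made in S phase and end in a stem-loop in place of a poly(A) tail, had the most negative median double difference of the lists (-1.06). The median log2 fold change was -1.02 in H1299, 0.15 in A549, and 0.60 in H460. H460 was above 0 for 58 of 59 genes, A549 for 43, and H1299 for 0, and the median difference from H460 was -1.64 for H1299 and -0.47 for A549. H2AC7 had 7841 and 2088 reads in H1299, 21 and 9 in A549, and 8615 and 12187 in H460, with log2 fold changes of -1.78, -1.29, and 0.58. H2BC8 had 10769 and 4912 reads in H1299, 21 and 14 in A549, and 8426 and 13947 in H460, and its A549 log2 fold change of -0.70 had an interval of -1.82 to 0.31. The classes of both rest on low counts in A549, and H2AC7 lies just under the threshold in H460. Histone genes of a cluster are near-identical, and the way reads were divided among them is uncertain. Mitosis genes showed a smaller difference of the same sign, with a median double difference of -0.41, 38 of 40 below 0, and medians of -0.49 in H1299, 0.09 in A549, and 0.20 in H460.

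**Figure D2:**
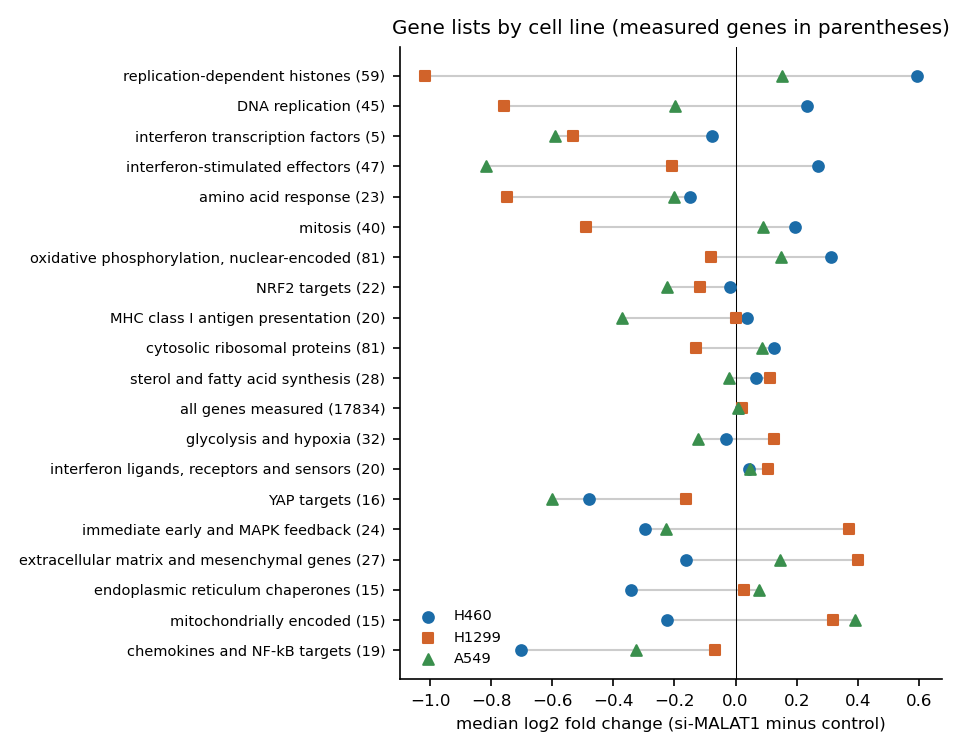
Median log2 fold change over the measured members of each gene list (horizontal axis) in H460 (circles), H1299 (squares), and A549 (triangles), with lists ordered by median double difference. H1299 and A549 lie together on 1 side of 0 and H460 on the other for the interferon-stimulated effectors, DNA replication, extracellular matrix, chaperone, and mitochondrially encoded lists, while for histones A549 (0.15) lies between H1299 (-1.02) and H460 (0.60). For the chaperones H1299 (0.03) and A549 (0.08) lie near 0.

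In the other direction, TGFBR2 was among the genes with the widest separation that were higher in H1299 and A549 and not followed by H460. TGFBR2 (Gene ID 7048, chromosome 3, 30606472 to 30694142) encodes the type II receptor of TGF-beta. It had 2919 and 10839 reads in H1299, 4320 and 13984 in A549, and 1214 and 1031 in H460. The log2 fold change was 2.02 (1.96 to 2.08) in H1299, 1.55 (1.501 to 1.60) in A549, and -0.15 (-0.28 to -0.03) in H460. TGFBR2 rose across H1299 and A549 in edgeR's test with an adjusted p of 0.0385, as 1 of 13 genes higher there (0.056%), and its double difference was 1.94. ADAM19, a membrane metalloproteinase, had 1488 and 6546 reads in H1299, 358 and 1151 in A549, and 1128 and 1317 in H460. Its log2 fold change was 2.27, 1.54, and 0.30 in this order, with an adjusted p of 0.0385 across H1299 and A549 in edgeR's test. The 13 higher and 42 lower calls of this fit became 0 and 1 with RLE size factors, 0 and 0 with no filter, and 0 and 0 without cell line as the block, so TGFBR2, ADAM19, IFIT1, and KTI12 were not called under these settings.

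Extracellular matrix and mesenchymal genes stood at medians of 0.40 in H1299, 0.15 in A549, and -0.16 in H460, and 22 of 27 had a double difference above 0 (median 0.28), beside 49.0% of all genes. H460 did not follow 2 of them, both higher in the pair, beside 1.54% of all genes opposed or not followed in that direction. FN1, fibronectin, had 7940 and 19555 reads in H1299, 59911 and 118543 in A549, and 477355 and 382402 in H460, with log2 fold changes of 1.43, 0.84, and -0.24. ITGA2, a collagen-binding integrin chain, was at 1.75, 0.74, and 0.04. LOX, which cross-links collagen and is not on this list, was at 1.40, 1.47, and -0.14, but on only 8 and 26 reads in A549. Not every member of the list went this way. TGFBI, a matrix protein named for its induction by TGF-beta, was lower in all lines, at -0.24 in H1299, -2.04 in A549, and -0.68 in H460. TGFBI was chosen after its values were seen.

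**Figure D3:**
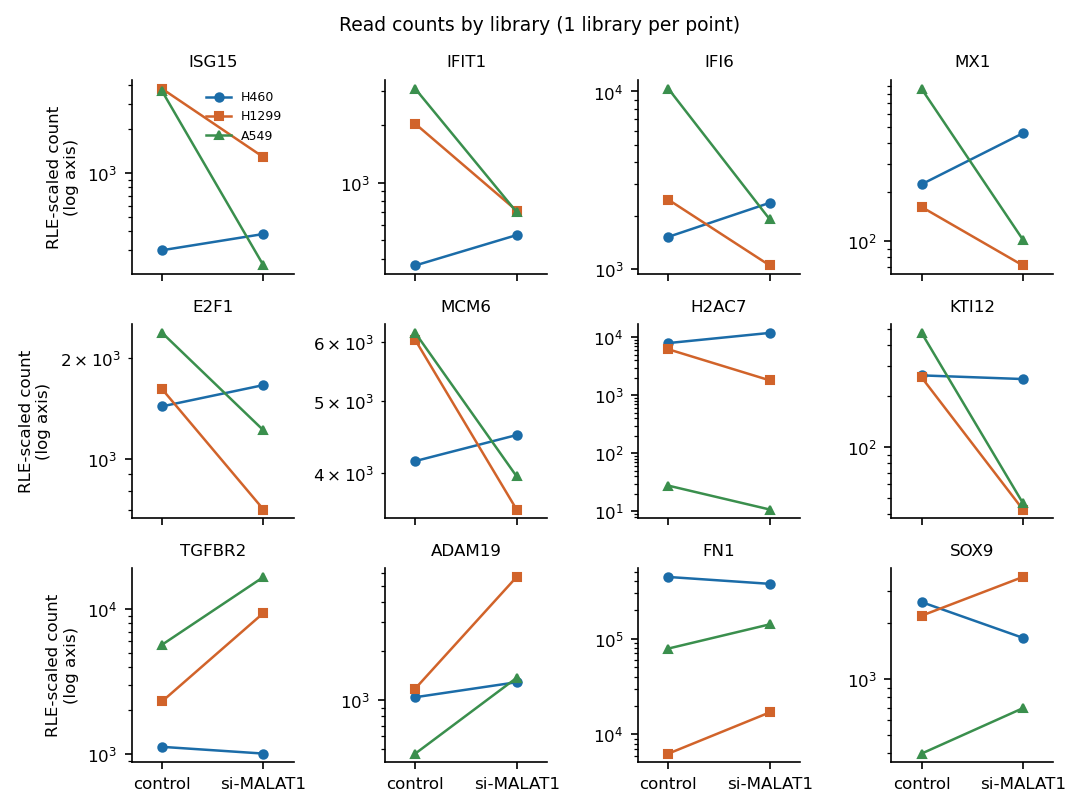
RLE-scaled read count (vertical axis, log scale, 1 panel per gene) in the control and si-MALAT1 library of each line, with 1 library per point and a line joining the libraries of a cell line. In the ISG15, IFIT1, IFI6, MX1, E2F1, MCM6, H2AC7, and KTI12 panels the H1299 and A549 lines slope down and the H460 line is level or slopes up. In the TGFBR2, ADAM19, FN1, and SOX9 panels the H1299 and A549 lines slope up and H460 is level, slightly higher (ADAM19), or lower.

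Genes that were higher in H1299 and A549 and opposed by H460 included 2 transcription factors with ample reads. SOX9 had 2773 and 4098 reads in H1299, 301 and 585 in A549, and 2815 and 1706 in H460, and its log2 fold change was 0.69 in H1299 (0.62 to 0.76), 0.81 in A549 (0.61 to 1.02), and -0.64 in H460 (-0.73 to -0.55). NR4A1, an orphan nuclear receptor and immediate early gene, had 364 and 544 reads in H1299, 1117 and 2073 in A549, and 5329 and 3295 in H460, with log2 fold changes of 0.71, 0.75, and -0.61. The H460 value of NR4A1 lies just past 1.5-fold, and the H460 interval of SOX9 reaches inside it. The class of both as opposed thus depends on the threshold. IGF2BP1, an RNA-binding protein, had 23 and 11 reads in H460 against 9045 and 14005 in H1299, and its H460 interval of -2.17 to 0.11 included 0. COL21A1 (13 and 7 reads in H460) likewise had an H460 interval that included 0, from -2.38 to 0.62. PCLO had 30 and 14 reads in H460, and ZNF365 had 12 and 50 in A549, and their double differences were 1.77 and 1.95.

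KTI12, a factor needed for tRNA wobble base modification, had 326 and 49 reads in H1299, 360 and 39 in A549, and 287 and 258 in H460. Its log2 fold changes were -2.58, -3.32, and -0.07, and it fell across H1299 and A549 with an adjusted p of 0.0385 in edgeR's test. SLC7A11, the cystine transporter, is a target of both ATF4 and NRF2 and a member of the amino acid response and NRF2 lists. It had 2533 and 636 reads in H1299, 22601 and 13413 in A549, and 69691 and 59372 in H460, with log2 fold changes of -1.86, -0.90, and -0.15. CCDC102B was at -1.39, -1.68, and 0.26 with 19 and 6 reads in A549. TMEM169 was opposed, at -1.04, -1.05, and 1.19, on 17 and 38 reads in H460. AVIL was at 1.54, 1.501, and -0.04, PCDHGA9 at 0.81, 1.06, and -0.53, and LOC112268131 at 1.76, 1.45, and 0.11. ISY1-RAB43 is a readthrough transcript that shares its exons with both parent genes, and its double difference of -1.98 is uncertain for that reason.

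Endoplasmic reticulum chaperones had medians of 0.03 in H1299, 0.08 in A549, and -0.34 in H460, and 14 of 15 double differences were above 0. HSPA5, the chaperone BiP, had 15654 and 19953 reads in H1299, 8558 and 11179 in A549, and 65373 and 34688 in H460, a double difference of 1.19. XBP1, the transcription factor of the unfolded protein response, was at 0.11, 0.63, and -0.53. Chemokines and NF-kB targets had medians of -0.07 in H1299, -0.33 in A549, and -0.70 in H460, and 17 of 19 double differences were above 0 (median 0.61). CXCL8, the chemokine IL-8, had 29 and 26 reads in H1299, 1815 and 1297 in A549, and 102547 and 30603 in H460. ICAM1, an adhesion molecule, was at 0.19, 0.22, and -0.96. In both lists 0 genes were opposed or not followed, and H1299 and A549 shared a change past 1.5-fold only for DNAJB9, a chaperone that was in between, and CCL5, a chemokine that H460 followed. HSPA5, XBP1, CXCL8, ICAM1, DNAJB9, and CCL5 were chosen after their values were seen.

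The 15 mitochondrially encoded genes were all higher in H1299 and A549 relative to H460, with medians of 0.32 in H1299, 0.39 in A549, and -0.22 in H460. All 15 were within 1.5-fold in H460. CYTB, a subunit of complex III, was at 0.47, 0.73, and -0.41, and COX1, of complex IV, had 43809 and 52566 reads in H1299, 29617 and 47995 in A549, and 99581 and 69622 in H460. The nuclear-encoded subunits of oxidative phosphorylation had medians of -0.08 in H1299, 0.15 in A549, and 0.31 in H460. Their median double difference was -0.30, with 75 of 81 below 0, and the median difference from H460 was -0.41 for H1299 and -0.20 for A549. After centring on transcript length it was -0.12, with 63 of 80 below 0. CYTB and COX1 were chosen after their values were seen.

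The remaining lists differed less or differed between H1299 and A549. Amino acid response genes had a median double difference of -0.42, with medians of -0.75 in H1299 and -0.20 in A549 against -0.15 in H460, and NRF2 targets had -0.29. The median double difference was -0.07 for sterol and fatty acid synthesis, 0.07 for glycolysis and hypoxia, 0.08 for YAP targets, 0.14 for immediate early genes, and -0.15 for cytosolic ribosomal proteins.

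Transcript length moved with the double difference. Over 11882 protein-coding genes read at least 100 times per library on average, the median double difference was -0.24 in the shortest decile of transcript length (303 to 1589 bases) and 0.21 in the longest (8642 to 38709 bases). H460 went from 0.14 to -0.09 between these deciles, H1299 from -0.17 to 0.24, and A549 from -0.01 to 0.05. When the median of the length decile was taken off each gene, an alternative chosen after seeing the data, the median double difference was -0.59 for the interferon-stimulated effectors and -0.67 for DNA replication, with 43 of 47 and 45 of 45 genes below 0. It was -0.82 for histones, whose median length is 494 bases. It was -0.12 for the nuclear-encoded oxidative phosphorylation genes and 0.07 for the cytosolic ribosomal proteins, which changed sign. Lengths were found for too few mitochondrially encoded genes for this check to be made.

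**Figure D4:**
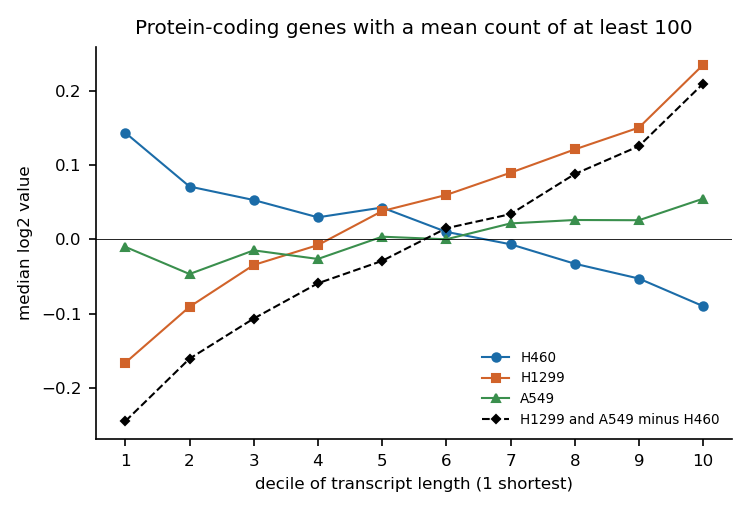
Median log2 fold change (vertical axis) in H460, H1299, and A549, and median double difference (dashed), over deciles of transcript length of 11882 protein-coding genes. H460 goes from 0.14 to -0.09 while H1299 goes from -0.17 to 0.24, and A549 stays between -0.05 and 0.05.

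How far H460 followed the pair was read from genes chosen without it. In the 4 libraries of H1299 and A549 alone, at an adjusted p under 0.05 edgeR's test called 51 genes that rose and 112 that fell, 0.25% and 0.549% of 20386 genes. Of the 112, 111 were measured in H460, where 106 had the same sign and 70 (63.1%) were at least 1.5-fold lower too, beside 10.3% of all genes in H460. Of the 51, 48 were measured, 45 had the same sign, and 20 (41.7%) were at least 1.5-fold higher, beside 9.5% of all genes. H460 did not follow 16 of the 48 that rose, beside 29.95% of all genes shared higher in H1299 and A549. It did not follow 22 of the 111 that fell, beside 27.93% of all genes shared lower. It opposed 0 and 1 (IFI6), beside 11.65% and 7.66% of the shared genes, and 12 and 18 lay in between. The genes not followed include TGFBR2, ADAM19, B3GNT5, a glycosyltransferase of glycolipid synthesis, and STK40, a kinase-like regulator of NF-kB, among those that rose. Among those that fell they include IFIT1, E2F1, KTI12, GTF2H3, a subunit of the TFIIH repair and transcription complex, and MAD2L1, a spindle checkpoint protein. B3GNT5, for example, had 2960 and 8962 reads in H1299, 357 and 934 in A549, and 876 and 1036 in H460. GTF2H3 had 4656 and 1522 reads in H1299, 2395 and 1157 in A549, and 5352 and 4051 in H460. B3GNT5, STK40, GTF2H3, and MAD2L1 were chosen after their values were seen.

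The alternative size factors were run in the fit of all 6 libraries and not in this fit of 4, so how its calls move with the scaling was not tested.

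The difference between H460 and the pair was also tested directly, as the treatment by cell line term in a fit of the 6 libraries with cell line as the block and 1 residual degree of freedom. Of 23198 genes tested, edgeR's quasi-likelihood test called 0 at an adjusted p under 0.05 (0.0%), and 652 were higher and 599 lower at an unadjusted p under 0.05 (5.39% together). The smallest adjusted p was 0.0814. DESeq2's Wald test on the same genes called 8 higher and 10 lower. These include TGFBR2 (adjusted p = 0.000767 in DESeq2), H2AC7 (0.000344), H2BC8 (0.00499), and IFIT1 (0.0318), whose adjusted p values ranged up to 1.0 over the settings tried. They also include readthrough, copied, or near-zero genes, namely ATP6V1G2-DDX39B (2.77e-06), CDRT4 (0.000406), SNRPN (0.00127), CD302 (0.00218), CORO7-PAM16 (0.00401), and STAG3L3 (0.0193). The double differences of single genes above are therefore values and not calls. By unadjusted p under 0.05 in edgeR's test, 18 of 47 interferon-stimulated effectors, 21 of 45 replication genes, and 25 of 59 histones passed. Of the 17834 genes with a read in all 6 libraries, 812 did. Other lists ranged from 0 of 40 mitosis genes and 0 of 81 cytosolic ribosomal proteins to 2 of 5 interferon transcription factors. The members of a list share 1 H460 pair, so they are not independent passes.

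Of the 10 genes with the smallest unadjusted p in this term, 5 in each direction, 6 had a count of 0 in at least 1 library. HLA-G had 0 and 148 reads in H1299, 0 and 0 in A549, and 745 and 0 in H460, and it is one of a family of near-identical class I genes. CD302 had 1493 and 1342 reads in H1299, 412 and 517 in A549, and 0 and 251 in H460. ATP6V1G2-DDX39B, a readthrough transcript, had 21 and 1215 reads in H460 against 258 and 238 in H1299. CDRT4 had 745 and 6 reads in H460, NR3C2 39 and 0, and LIMS3-LOC440895 119 and 0. CORO7-PAM16 had 334 and 0 reads in H1299 and 43 and 0 in A549. SNRPN had 1704 and 7082 reads in H460 and 0 and 0 in H1299. STAG3L3, one of several near-identical copies, was opposed with a double difference of 5.37. Overlapping or copied genes share reads, and how these were assigned among them is uncertain.

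**Figure D5:**
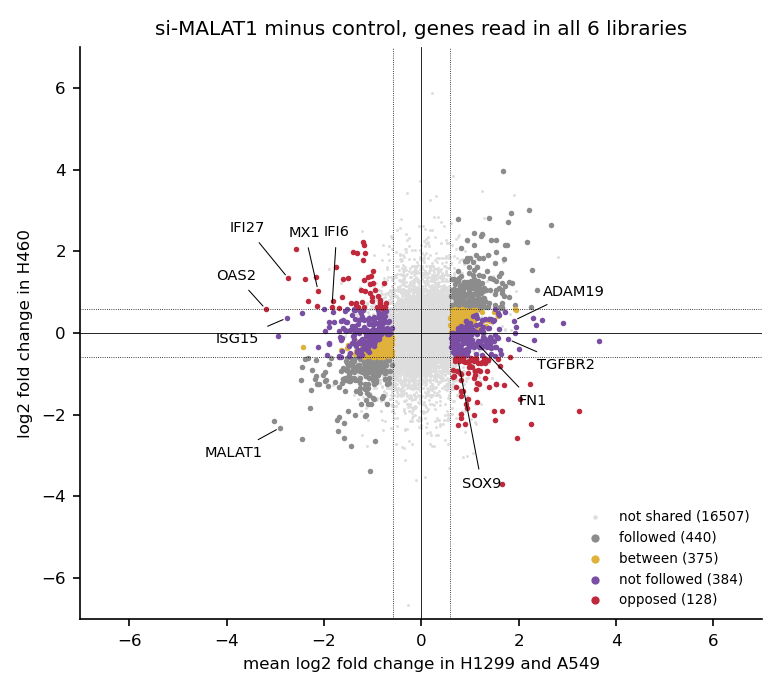
Log2 fold change in H460 (vertical axis) against the mean of H1299 and A549 (horizontal axis) for the 17834 genes read in all 6 libraries, with the 1327 shared genes coloured by class and dotted lines at 1.5-fold. The 440 followed genes lie in the upper right and lower left, the 128 opposed genes in the upper left and lower right, and IFI27, MX1, OAS2, and IFI6 are among the opposed genes that were lower in H1299 and A549.

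By direction, 661 genes were shared higher and 666 shared lower, 3.71% and 3.73% of the genes measured. H460 opposed 77 and 51 of these (0.432% and 0.286%), and did not follow 198 and 186 (1.11% and 1.04%). The opposed genes were thinly read, since 64.9% of those higher and 64.7% of those lower had a mean read count under 50. Among genes read at least 50 times on average, H460 opposed 27 and 18 genes and did not follow 129 and 115. The counting interval of H460 lay apart from those of both other lines for 44 and 24 of the opposed genes. It did so for 104 and 92 of those not followed. It also did so for 83 of the 174 and 115 of the 201 genes in between. Among followed genes the numbers were 22 of 212 and 64 of 228. The opposed and not followed classes were defined by distance from H460, so separate intervals are no further evidence for them. Protein-coding genes made up 36.4% and 39.2% of the opposed genes, against 64.2% and 66.7% of the followed ones.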

How the data were processed

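RNA-seq of 6 libraries was analysed, 1 control and 1 si-MALAT1 library per cell line, assigned from the sample labels. The authors trimmed reads with Trimmomatic, aligned them with HISAT2 2.1.0 to GRCh38, and estimated abundance with StringTie. The submitters' processing notes give StringTie 1.3.4b, and the notes also list another build. The deposited read counts are whole numbers, not normalized. The TPM and FPKM deposited by the authors are scaled for length and depth, and FPKM was not used. The table's authors' columns of other samples (18 per-sample columns) were not used. Whether counting used strand is not given in the sources used here.

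Log2 fold changes used RLE size factors and a pseudocount of 1. The main test was the quasi-likelihood test of edgeR 4.0.16 with TMM normalization, a filter on low counts, and cell line as the block, since both libraries of a pair come from the same line. Adjusted p values are Benjamini-Hochberg over all genes tested. DESeq2 1.42.0 was the alternative. On simulated data the interaction test of both tools made more false calls than the threshold on the adjusted p allows. Replicates from separate cultures were not sequenced. With cell line as the block, the 1 residual degree of freedom is the difference between the H1299 and A549 responses. The p values rest on that spread, which both tools moderate with the spread of other genes, so they do not measure a gene's own spread alone. H460 has 1 pair, which adds nothing to that spread, and H460 is assumed to vary as H1299 and A549 differ. Other alternatives were another fold threshold, pseudocount, filter, and scaling, TPM, no block, and leaving out a line.

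The members, gene lists, and tests were chosen with earlier results of these data known. Named genes are MALAT1, the 6 protein-coding genes per class and direction with the largest separation from H460 and a mean count of at least 100, up to 8 members of lists with at least 20% opposed or not followed (2 for other lists), the 5 genes per direction with the smallest interaction p, and interferon pathway regulators, ligands, receptors, and sensors. Genes named outside this rule, as members of lists or the line and marker checks, were chosen after their values were seen. Some genes and a gene list are not reported here. Promoters were RefSeq's on GRCh38.p14. Software was pandas 2.3.3, scipy 1.17.1, and numpy 2.4.6 under Python 3.11.15, and R 4.3.3.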

Additional observations from a re-analysis of the deposited data

Results flagged for a closer look

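Some differences stood out because H1299 and A549 lay on one side of 0 and H460 on the other. These differences were not past the threshold in edgeR's interaction test, and the medians of lists were not tested. By median double difference they were the interferon-stimulated effectors (-0.55), DNA replication (-0.77), endoplasmic reticulum chaperones (0.31), extracellular matrix and mesenchymal genes (0.28), and mitochondrially encoded genes (0.54). For the chaperones, H1299 (0.03) and A549 (0.08) lay near 0 and H460 was at -0.34, beside 0.02, 0.01, and 0.02 over all genes.

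Of the named genes that were lower in H1299 and A549 and opposed by H460, the double difference was -4.08 for IFI27, -3.78 for OAS2, -3.16 for MX1, -2.47 for IFI6, -2.29 for OASL, -2.24 for TMEM169, -1.98 for ISY1-RAB43, and -1.66 for H2BC8. IFI44, chosen after its values were seen, was at -2.81. Of those higher in H1299 and A549, it was 5.37 for STAG3L3, 2.03 for COL21A1, 1.95 for ZNF365, 1.77 for PCLO, 1.65 for IGF2BP1, 1.39 for SOX9, and 1.34 for NR4A1.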

How the results depend on the processing

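With 1 library per line and condition, the difference from H460 rests on a single pair of H460 libraries, and the interaction test could not be fitted without H1299 or A549, since no residual degrees of freedom would be left. The interaction test called 0 genes in either direction in the main fit, with RLE size factors, with no filter, and with no replicate block (the cell line). It called 8 higher and 10 lower with DESeq2, and 2 higher and 4 lower over genes read in all 6 libraries. The shared response of H1299 and A549 had 13 higher and 42 lower genes. These counts were 308 and 362 with DESeq2, 375 and 524 over genes read in all 6 libraries, 51 and 112 without H460, 0 and 1 with RLE size factors, 0 and 0 with no filter, and 0 and 0 with no replicate block. The cause was not tested.

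The class counts, opposed higher, opposed lower, not followed higher, and not followed lower, were 77, 51, 198, and 186. They were 14, 14, 38, and 46 at 2-fold, 27, 18, 129, and 115 with a mean count of at least 50, 2, 5, 66, and 50 on log2(TPM + 1), and 44, 24, 104, and 92 where the counting intervals lay apart. With a pseudocount of 10 the opposed genes were 22 and 18 and those not followed and lower were 115. With only H1299 or only A549 set against H460, which asks less of a gene, the ranges were 268 to 297, 211 to 250, 776 to 1002, and 745 to 937.

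The medians for interferon-stimulated effectors, DNA replication, and histones kept their sign under every alternative run. Their ranges with H1299 or A549 left out were -0.92 to -0.37, -1.02 to -0.49, and -1.64 to -0.47, and on log2(TPM + 1) they were -0.32, -0.58, and -0.89. On log2(TPM + 1), where the median of all genes moved from -0.01 to 0.09, the median double difference was 0.0070 for MHC class I, 0.11 for sterol synthesis, -0.032 for the amino acid response, 0.47 for chaperones, 0.67 for mitochondrially encoded genes, 0.018 for ribosomal proteins, and -0.14 for nuclear-encoded oxidative phosphorylation. After centring on length it was 0.36 for chaperones, -0.019 for YAP targets, 0.073 for ribosomal proteins, and -0.12 for nuclear-encoded oxidative phosphorylation. With H1299 or A549 left out, it ranged from -0.28 to 0.0074 for MHC class I, 0.41 to 0.63 for chemokines, -0.099 to 0.0042 for sterol synthesis, 0.31 to 0.34 for chaperones, -0.073 to 0.19 for glycolysis, -0.14 to 0.34 for YAP targets, and -0.043 to 0.34 for immediate early genes.

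Of 427 alternative values for 61 named genes, 420 kept their sign. The others were IFNAR2 (0.032 on TPM, and -0.20 to 0.13 with a line left out), TYK2 (0.067 on TPM, and -0.22 to 0.045), TBK1 (0.028 on TPM), IL10RB (-0.024 to 0.25), and IKBKE (-0.017 to 0.095).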
